A study of Mus musculus with 9 samples.

Results

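The centromere-proximal segment of mouse chromosome 7 was examined for its contacts with the Dbp locus. It was defined as all probes on chromosome 7 with a start from 1 to 35250000, in the coordinates of the deposited files, and was divided into windows of 100 kb with at least 5 probes. It held 2784 of the 19355 probes on chromosome 7 and of 384942 probes in all, and 226 of 24953 windows. The probes began at 3059888 and ended at 35247594. The segment lies between 10 and 42.2 Mb from the middle of the window 45200001 to 45300000, which was taken as the viewpoint. There the mean signal of the 9 arrays, smoothed by a running mean over 11 windows, was highest on chromosome 7.

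Contacts were measured by 4C, chromosome conformation capture on chip, in fibroblasts cultured from mouse embryos. Chromatin was crosslinked, cut with HindIII and ligated, and fragments joined to Dbp were amplified, labelled with Cy5 and hybridized together with Cy3-labelled genomic DNA to 1 NimbleGen array per sample. A value is the log2 ratio of 4C DNA over genomic DNA at 1 probe, so a higher value means that more ligation product of that place was recovered. All cells received dexamethasone for 2 h, which synchronizes the circadian clocks of cultured cells, and were harvested at a circadian time (CT) counted in hours.

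The 9 arrays came from 3 cell lines. The Bmal1-/- line, which lacks the clock activator Bmal1, gave 1 array at CT22 and 1 at CT34. Wild-type (WT) line 1 gave 1 array each at CT22, CT26, CT30, CT34 and CT46. WT line 2 gave 1 array each at CT22 and CT34. The labels say that the Bmal1-/- line and line 1 were established from siblings of 1 mating scheme and line 2 from another cross. Their growth protocol gives NCS, heat-inactivated FBS and amino acids for the Bmal1-/- line and line 1 and FBS for line 2, whereas the sample descriptions name no NCS. With 1 Bmal1-/- line, genotype and line cannot be told apart. The level of Bmal1 and the identity of the cells cannot be checked on arrays of DNA contacts. Nothing says that the arrays of a line came from separate cultures, so p-values measure only the spread between these arrays. Means and SDs over line 1 run over 5 different times, and those of the Bmal1-/- line and line 2 over both of theirs.

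4C reports how often a fixed locus, the viewpoint, lies close enough to other places in the genome to be ligated to them. Close to the viewpoint nearly every place is captured. Farther along the same chromosome, contacts usually gather in separate stretches, because chromatin folds into compartments in which active regions tend to meet active regions and inactive regions tend to meet inactive ones. Dbp encodes a transcription factor that is driven by the circadian clock through BMAL1 and CLOCK. A ratio from a pool of cells cannot tell a contact that is made in more cells from a contact that is made more often in each.

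The line 2 arrays stood apart from the rest. The 95th percentile of the log2 ratios off chromosome 7 was 2.16 and 2.73 in Bmal1-/- and 1.64 to 2.07 in line 1, but 0.51 and 0.52 in line 2. A probe was therefore called high when it exceeded this percentile of its own array, which makes 5% the level off chromosome 7. Array names in the headers give 24 and 36 for line 2, where the labels give CT22 and CT34, and the labels were followed. Results are given with and without line 2.

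The array covered the segment thinly. The median distance between neighbouring probe starts was 6301 bp, against 5199 bp on the whole of chromosome 7, and a measured window held a median of 12 probes, against 15. Of 322 windows of the grid, 54 held no probe and 42 held 1 to 4, which left these 96 windows unmeasured. The probe-free gaps over 100 kb numbered 20 in the segment and 4 in the rest of chromosome 7. Those of the segment added up to 7264201 bp, or 22.6% of the probed span. The longest ran from 20319309 to 22545149, a length of 2226 kb. Next came 19539209 to 20319309 (780.1 kb), 7481691 to 7975784 (494.1 kb), 14224435 to 14611522 (387.1 kb) and 19220228 to 19539209 (319.0 kb).

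The unmeasured windows formed 14 runs. The longest, from 19200001 to 23000000, spanned 38 windows with 8 probes. Runs of 21 windows from 6900001 to 9000000 and of 13 windows from 13600001 to 14900000 held 21 and 15 probes. The unmeasured windows held 97 probes in all. Of these, 11.3% and 12.4% were high in the Bmal1-/- arrays, 8.25% to 20.6% in the line 1 arrays, and 20.6% and 24.7% in the line 2 arrays. These shares lay above the 5% off chromosome 7 and below the share of the measured segment in each array.

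In every array the segment held a larger share of high probes than the rest of the far chromosome. In the Bmal1-/- arrays 41.5% and 40.8% of its probes were high at CT22 and CT34. In line 1 the shares were 46.0%, 46.9%, 48.2%, 45.9% and 45.9% at CT22, CT26, CT30, CT34 and CT46. In line 2 they were 26.7% and 30.1%. Line 2 thus lay below all other arrays, and all line 1 arrays lay above both Bmal1-/- arrays. For 1 array the counting interval was narrow (exact Clopper-Pearson, 95%), for example 39.6% to 43.3% for Bmal1-/- CT22, and covers counting error only.

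The comparison regions were the middle of chromosome 7, from 55 to 100 Mb, and its distal part beyond 100 Mb. The segment had 41.1% ± 0.460 high probes in Bmal1-/- (SD, n = 2), 46.6% ± 0.996 in line 1 (n = 5) and 28.4% ± 2.44 in line 2 (n = 2), against 31.2% ± 1.15, 32.5% ± 1.01 and 14.6% ± 1.56 in the middle. The distal part had 29.7% ± 2.08 in Bmal1-/-, 34.3% ± 1.32 in line 1 and 15.5% ± 2.79 in line 2. The segment exceeded the middle by 13.1 percentage points (SD over arrays 1.93, higher in 9 of 9 arrays, exact two-sided sign-flip permutation test p = 0.00391, the smallest it can give) and the distal part by 12.2 points (SD 1.33, 9 of 9 arrays, exact p = 0.00391). Without line 2, an alternative chosen after seeing the data, the differences were 12.9 and 12.05 points in 7 of 7 arrays. The arrays share their probes, so this test treats arrays, not places, as the repeated unit. The excess over the middle was 11.1 and 8.81 points in the Bmal1-/- arrays and 13.5 to 14.7 points in line 1.

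**Figure D1:**
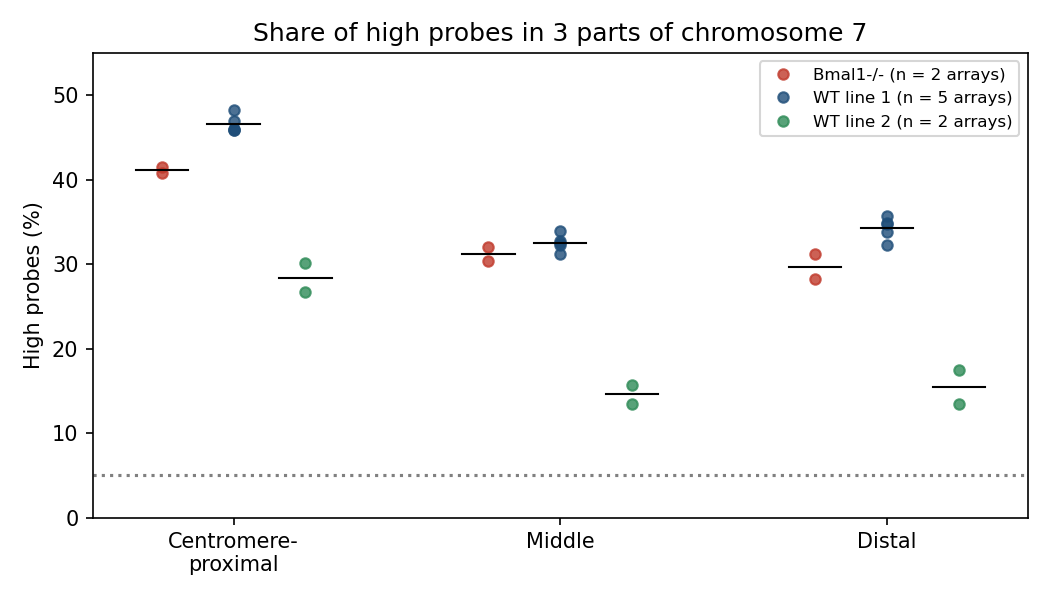
Share of high probes (percent, y axis) in the centromere-proximal segment, the middle and the distal part of chromosome 7. Each point is 1 array, bars are means of the Bmal1-/- line, WT line 1 and WT line 2, and the dotted line marks the 5% that holds off chromosome 7; in each line the points of the segment lie above those of both other regions.

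The excess was spread unevenly over the segment. A window was called a contact in an array when its number of high probes exceeded the share off chromosome 7 (one-sided binomial test, Benjamini-Hochberg adjusted over the windows of chromosome 7, 0.05), which describes 1 array. Windows called in at least 3 of the 5 line 1 arrays are contact windows, and the others are silent windows. The name silent refers to this call alone. By this rule 145 of 226 windows (64.2%) were contact windows, against 56.5% of all windows of chromosome 7, 54.9% of those outside the segment and 0.102% of those off chromosome 7. The remaining 81 windows (35.8%) were silent.

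Adjacent windows of the same state, with no unmeasured window between them, form a block. The contact windows made up 16 blocks with a median length of 400 kb and a longest of 4.5 Mb, and the silent windows made up 22 blocks with a median of 200 kb and a longest of 1.3 Mb. A few long blocks held most of the contact windows: 6 blocks of at least 500 kb held 120 of the 145. Among the silent blocks 5 were that long and held 49 of the 81, and 7 were single windows. These lengths depend on the settings. The longest contact block was 2100 kb with at least 10 probes per window, 1300 kb in 50 kb windows, 7400 kb in 200 kb windows and 700 kb when calls were made against the share of chromosome 7 itself. The longest silent block was 400, 450, 2600 and 3100 kb in the same order. Of 32 ends of contact blocks, 24 met a silent window, 7 met an unmeasured window and 1 was the edge of the segment, past which the run went on for 4 windows to 35600000. Lengths of contact and silent blocks are therefore lower bounds wherever an end is unmeasured. An unmeasured run also starts a new block where both its sides have the same state, which shortens blocks and raises their number.

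Alternation was not particular to the segment. In the middle of the chromosome 243 of 446 windows (54.5%) were contact windows, in 30 blocks with a median of 300 kb and a longest of 3.4 Mb. In the distal part 256 of 451 (56.8%) were, in 27 blocks with a median of 400 kb and a longest of 4.6 Mb. The longest silent blocks of these regions, 3.4 and 2.5 Mb, were longer than the 1.3 Mb of the segment. The 1.3 Mb block, however, ends at an unmeasured run of 13 windows with silent windows on both sides. Probe-free gaps over 100 kb numbered 20 in the segment and 4 in the rest of chromosome 7, so these lengths are not directly comparable. Of the 14 unmeasured runs, 9 with 89 windows had silent windows on both sides, 2 with 3 windows had contact windows on both sides, and 2 had 1 of each. How these stretches would be called was not measured.

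**Figure D2:**
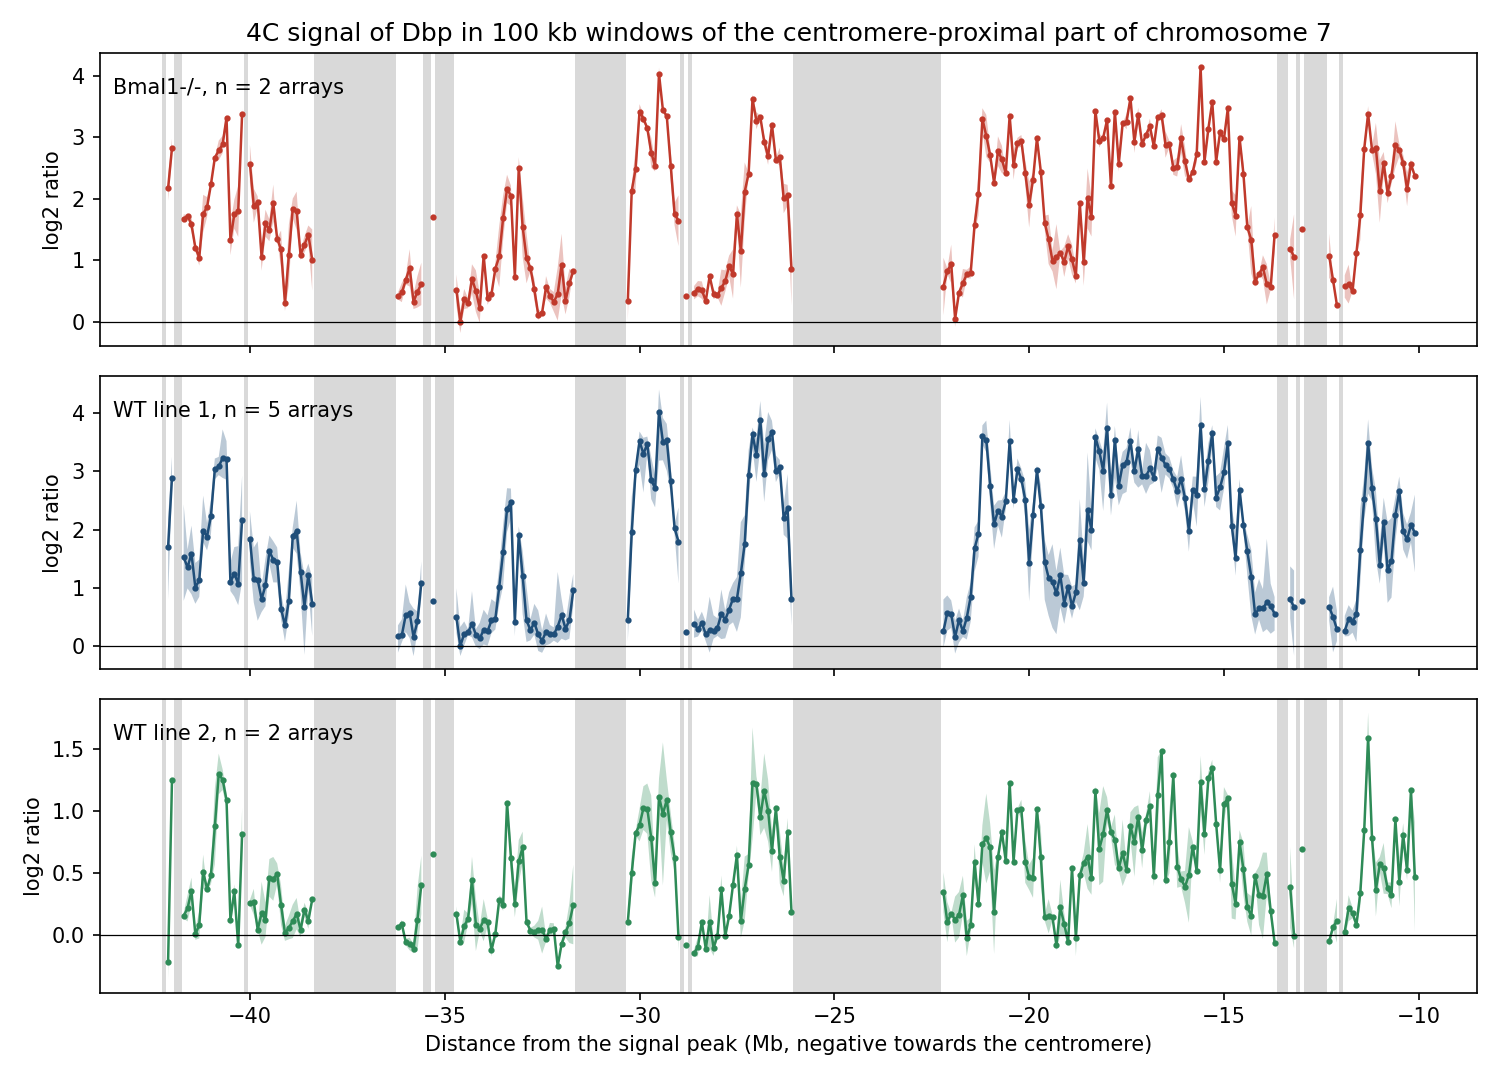
Mean log2 ratio (y axis) of 100 kb windows against the distance from the signal peak in Mb (x axis), for the Bmal1-/- line, WT line 1 and WT line 2. Lines are means and bands the range over the arrays of a line, grey bars are stretches with under 5 probes per window, and the y axis of line 2 has its own scale; the long raised blocks recur in all 3 lines, and some short ones are not raised in line 2.

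The longest contact block ran from 26500001 to 31000000, centred 16.5 Mb from the viewpoint. It comprised 45 windows and 600 probes. Its mean log2 ratio was 2.68 and 2.82 in Bmal1-/- at CT22 and CT34, 2.75, 2.58, 2.83, 2.798 and 2.94 in line 1 in order of time, and 0.68 and 0.82 in line 2. The values of Bmal1-/- lay inside the range of line 1. High probes made up 63.5% ± 2.83 of it in Bmal1-/- (SD, n = 2), 72.0% ± 2.66 in line 1 (n = 5) and 40.9% ± 3.42 in line 2 (n = 2). Within the block the line 1 mean of a window ranged from 1.10 to 3.79 with a median of 2.89, and 19 of its windows were above 3 while none was below 1. All 9 arrays called 33 of the 45 windows, and the 5 line 1 arrays all called 42. Of the 145 contact windows of the segment 83 had a call in all 9 arrays, and of all windows of chromosome 7 19.3% did. The block holds only windows called in at least 3 line 1 arrays, so that choice raises both of its counts above the share of all windows.

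The other long contact blocks differed in level, and the 2 with the highest line 1 means lay farther from the viewpoint. The block from 15000001 to 16300000, 29.6 Mb away with 176 probes, had log2 ratios of 2.77 and 2.84 in Bmal1-/-, 3.05, 2.67, 2.98, 3.08 and 3.06 in line 1, and 0.66 and 0.90 in line 2. It held the highest window of the segment, 15700001 to 15800000, with a line 1 mean of 4.02. The block from 17800001 to 19100000, 26.8 Mb away with 145 probes, had 2.48 and 2.76 in Bmal1-/-, 2.85, 2.66, 3.07, 2.87 and 3.02 in line 1, and 0.61 and 0.97 in line 2. These 2 blocks exceeded the nearest block of the segment in every line 1 and Bmal1-/- array.

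That nearest block, from 33700001 to 35200000, 10.8 Mb away with 203 probes, had 2.33 and 2.74 in Bmal1-/-, 1.99, 1.93, 2.19, 2.21 and 2.22 in line 1, and 0.63 and 0.71 in line 2. Both Bmal1-/- values lay above all 5 of line 1. The block from 23700001 to 25800000, with 21 windows and 277 probes, varied least between the line 1 arrays among the 6 long blocks, with 2.27 and 2.52 in Bmal1-/-, 2.32 to 2.42 in line 1, and 0.55 and 0.66 in line 2. At the far end, 41.1 Mb away, the block from 3500001 to 4800000 had 1.92 and 2.08 in Bmal1-/-, 1.78 to 2.14 in line 1, and 0.53 and 0.52 in line 2. The order of these blocks did not follow their distance from Dbp. Short contact blocks of line 1 were not all raised in line 2: that from 6300001 to 6700000 had 0.16 and 0.10 there and that from 26000001 to 26300000 had 0.04 and 0.14, with no call in either array, near the line 2 silent mean of 0.11.

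Silent blocks were low but not at the level of other chromosomes. Over all silent windows the mean log2 ratio was 0.71 ± 0.20 in Bmal1-/- (SD, n = 2), 0.48 ± 0.06 in line 1 (n = 5) and 0.11 ± 0.01 in line 2 (n = 2), where the mean off chromosome 7 was 0.25 ± 0.06, 0.14 ± 0.03 and 0.02 ± 0.003 in the same order. High probes made up 11.1% ± 0.177 of them in Bmal1-/-, 11.5% ± 1.99 in line 1 and 11.8% ± 0.799 in line 2, all above 5%. Contact windows exceeded silent windows by 1.73 ± 0.02 in Bmal1-/- and by 0.54 ± 0.11 in line 2, neither of which was used to define them. In line 1, which defined them, the gap was 1.94 ± 0.11.

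The longest silent block, from 12300001 to 13600000 with 125 probes, had log2 ratios of 0.42 and 0.68 in Bmal1-/-, 0.26, 0.35, 0.46, 0.40 and 0.34 in line 1, and -0.004 and 0.06 in line 2. The block from 16600001 to 17800000 had 0.59 and 0.76 in Bmal1-/-, 0.40 to 0.54 in line 1, and 0.10 and 0.12 in line 2. The lowest in line 1 among the 5 long ones was 10500001 to 11600000, with 0.40 and 0.58 in Bmal1-/-, 0.18 to 0.33 in line 1, and 0.17 and 0.02 in line 2. The silent block from 31000001 to 31600000 was higher, with 0.67 and 0.96 in Bmal1-/-, 0.39 to 0.84 in line 1, and 0.40 and 0.18 in line 2. That from 23000001 to 23700000 had 0.54 and 0.67 in Bmal1-/-, 0.27 to 0.56 in line 1, and 0.08 and 0.27 in line 2. In each of the 5 long silent blocks the Bmal1-/- array at CT34 was above all line 1 arrays. Off chromosome 7 the mean of that array was also above them, with 0.30 against 0.10 to 0.17.

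**Figure D3:**
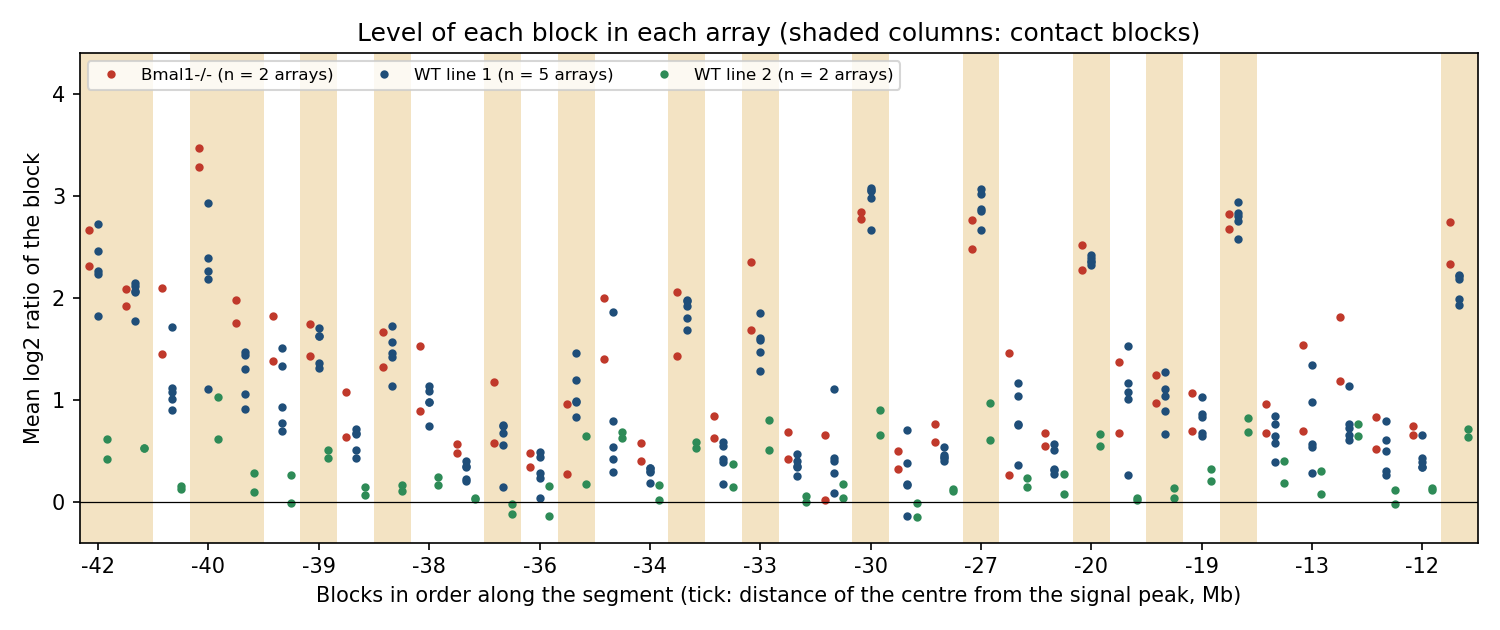
Mean log2 ratio (y axis) of each of the 38 blocks in order along the segment (x axis, ticks give the distance of the block centre from the signal peak in Mb). Each dot is 1 array of the Bmal1-/- line, WT line 1 or WT line 2, and shaded columns are contact blocks; the lowest value of a contact block of at least 500 kb in a Bmal1-/- or line 1 array is 1.78, and short blocks overlap in level.

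The state of a window went with its number of probes. Silent windows had a median of 9 probes and contact windows of 13. Of windows with 5 to 7 probes 4 of 24 were contacts (16.7%), with 8 to 11 probes 42 of 80 (52.5%), with 12 to 15 probes 75 of 95 (78.9%), and with 16 or more 24 of 27 (88.9%). The call itself asks for a larger share in a thin window, since 2 of 5, 3 of 12 and 4 of 20 probes had to be high in line 1. The share of high probes, which has no such requirement, was 20.5%, 36.5%, 52.9% and 60.4% in line 1 over the same 4 classes. On the rest of chromosome 7 it was 16.4%, 30.2%, 35.5% and 34.6%. The segment was above the rest in each class, and by the most in windows rich in probes. What sets the number of probes in a window was not measured.

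Borders were examined where at least 3 contact windows met at least 3 silent windows. These were the 7 window edges at 6000000, 6300000, 11600000, 17800000, 23700000, 31000000 and 33700000. At each, the probes within 300 kb were split in every array where the sum of squares between the sides was largest, with at least 5 probes on a side. The step, contact side minus silent side, was positive in 61 of 63 cases. Its mean over the arrays of a line ran from 0.85 to 2.32 in Bmal1-/-, from 1.08 to 2.60 in line 1 and from -0.18 to 1.41 in line 2. Both negative steps were in line 2, at 6300000 at CT34 and at 31000000 at CT22. The borders were chosen on line 1 calls, so a positive step in line 1 largely follows from that choice. All 14 steps in Bmal1-/-, which set no border, were positive.

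The border with the largest mean step in each line was that at 33700000. Its step was 2.41 and 2.23 in Bmal1-/- at CT22 and CT34, 2.68, 1.99, 3.06, 2.66 and 2.6 in line 1 in order of time, and 1.11 and 1.71 in line 2. Both Bmal1-/- arrays, 2 line 1 arrays and 1 line 2 array split at the same position, 33783455. A split falls between 2 neighbouring probes, so its place is known only to within their spacing. The line 1 positions ran from 33718052 to 33882816, a spread of 165 kb. The border at 11600000 was the most narrowly placed. Its split lay at 11739142 and 11749277 in Bmal1-/-, between 11711574 and 11769725 in line 1, a spread of 58.2 kb, and at 11783822 and 11819324 in line 2. The border at 17800000 was loosely placed, with line 1 positions spread over 272 kb.

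Over all 7 borders the line 1 positions spread over 58.2 to 284 kb, and 39 of the 63 splits lay within 50 kb of the line 1 median of their border. This count includes the line 1 splits, which set that median. Exactly at the median lay 4 of 14 Bmal1-/- splits and 1 of 14 line 2 splits. Of the Bmal1-/- splits 12 of 14 lay inside the line 1 range, and of the line 2 splits 7 of 14. Aligned on the window edges, the mean signal of the 7 borders was higher deep inside the contact block than at its edge. Splits could lie far from the edge, by 252 kb in line 1 CT26 at 17800000. The mean signal therefore cannot tell a gradual climb from abrupt steps at different places. In line 1 it was 0.53 ± 0.21 at 50 to 100 kb outside the contact block, 0.73 ± 0.09 in the last 50 kb outside, 1.33 ± 0.21 in the first 50 kb inside, 1.64 ± 0.10 at 100 to 150 kb inside and 2.31 ± 0.16 at 250 to 300 kb inside (SD, n = 5 arrays). In Bmal1-/- the values at the same places were 1.09 ± 0.05, 1.08 ± 0.42, 1.31 ± 0.50, 1.57 ± 0.44 and 2.26 ± 0.24 (SD, n = 2). In line 2 they were 0.24 ± 0.01, 0.25 ± 0.18, 0.21 ± 0.05, 0.38 ± 0.01 and 0.61 ± 0.09 (SD, n = 2). The window edges were set by the line 1 calls, so the line 1 step includes that choice.

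**Figure D4:**
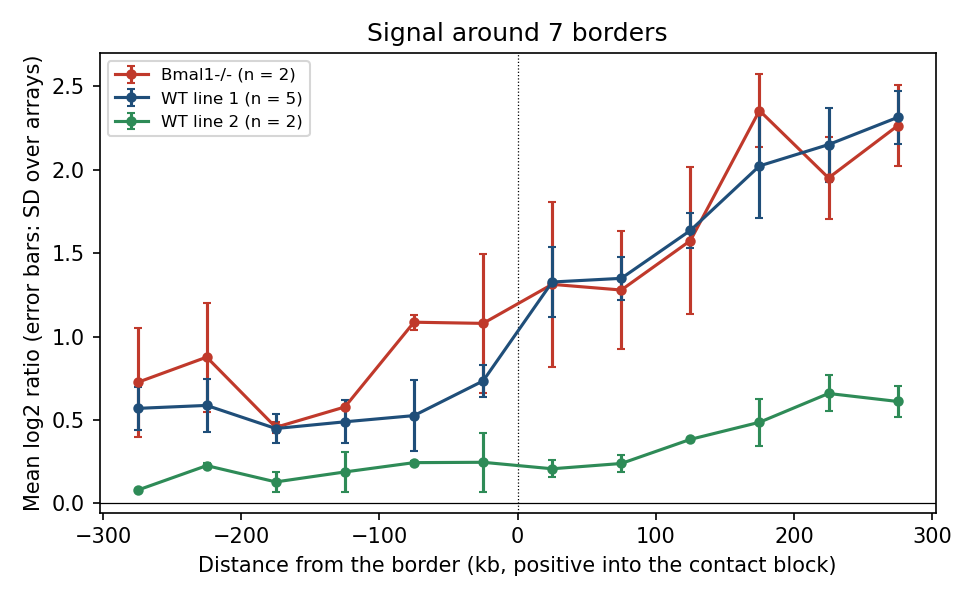
Mean log2 ratio (y axis) in bins of 50 kb against the distance from the window edge in kb (x axis, positive into the contact block), averaged over 7 borders. Points are means over the arrays of a line and error bars the SD over arrays; in all 3 lines the signal is higher at 250 to 300 kb inside the block than at its edge.

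The pattern was much the same at the 5 times of line 1. The 5 arrays called 147, 148, 148, 144 and 138 windows of the segment, where they called 57.1%, 59.5%, 58.1%, 57.2% and 56.2% of the windows of chromosome 7 in order of time. A call was made at all 5 times in 116 windows (51.3%, against 46.5% on chromosome 7) and at none in 52 (23.0%). The 58 windows called at 1 to 4 times were intermediate in level, with a line 1 mean of 0.98, against 2.67 for those called at 5 times and 0.39 for those called at none. Calls and levels came from the same arrays, so this order largely follows from the definition. The windows called at 1 to 4 times lay at block ends in 38 of 58 cases (65.5%), where 29.2% of all windows did. Block ends were drawn from the same calls and include ends at unmeasured windows, so part of this share follows from the definition.

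Across the 226 windows the log2 ratios of 2 line 1 arrays correlated with a median r of 0.942 (0.917 to 0.949, 10 pairs). This is a description over windows that share probes and blocks. Within contact windows the median was 0.897 and within silent windows 0.415. Bmal1-/- arrays correlated with line 1 arrays with a median r of 0.922 over all windows, 0.856 over contact windows and 0.517 over silent windows. For line 2 with line 1 the values were 0.775, 0.708 and 0.251. Contact windows also spanned a wider range of line 1 means, 0.57 to 4.02, against 0.01 to 1.25 in silent windows.

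The windows that varied most between the times of line 1 held few probes. The window from 26500001 to 26600000, the first of the longest contact block, had 1.97 and 1.89 in Bmal1-/-, 0.62, 2.09, 2.39, 1.46 and 2.53 in line 1, and 0.43 and 0.53 in line 2, with 7 probes. The window from 5000001 to 5100000 had 3.29 and 3.47 in Bmal1-/-, 2.40, 2.26, 1.11, 2.93 and 2.18 in line 1, and 0.61 and 1.03 in line 2, with 6 probes. The next were those starting at 3500001, 9900001 and 31300001, with SDs over line 1 of 0.65, 0.63 and 0.62 and 9, 8 and 6 probes. Each time of line 1 was 1 array, so a change with time and the spread between arrays cannot be told apart at a window.

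Calls in the other lines fell mostly on the contact windows of line 1. The Bmal1-/- arrays called 142 and 143 windows of the segment at CT22 and CT34, and 56.0% and 58.2% of the windows of chromosome 7. The line 2 arrays called 104 and 115, and 29.3% and 36.4% of chromosome 7. Of the 145 contact windows both Bmal1-/- arrays called 127 (87.6%), 1 of them called 12 and neither called 6. Of the 81 silent windows both called 4 (4.94%), 1 called 11 and neither called 66. Both called 131 of all 226 windows (58.0%, against 51.3% on chromosome 7). Of the 116 windows called at all 5 times of line 1, both Bmal1-/- arrays called 114. In line 2 both arrays called 86 of the 145 contact windows (59.3%) and 2 of the 81 silent ones, and 88 in all (38.9%, against 22.2% on chromosome 7). A call in all 9 arrays was made in 83 windows (36.7%) and in no array in 42 (18.6%, against 23.7% on chromosome 7).

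Opposite calls were made in 10 windows. The 6 contact windows without a Bmal1-/- call began at 3900001, 9600001, 17800001, 23700001, 25600001 and 26600001. Their mean log2 ratios ran from 0.61 to 1.61 in Bmal1-/- and from 0.86 to 1.45 in line 1, and in none of them did both Bmal1-/- values lie below all those of line 1. The widest gap was at 9600001, with 0.61 in Bmal1-/- and 1.09 ± 0.24 in line 1 (SD, n = 5). The 4 silent windows with a call in both Bmal1-/- arrays began at 4900001, 6000001, 9900001 and 11500001. Their means were higher in Bmal1-/- in all 4, with 1.79, 1.18, 1.70 and 0.86 in Bmal1-/-, against 1.08, 0.65, 0.78 and 0.47 in line 1 in the same order. They were chosen by calls of both lines, so these values are a description. In the window from 11500001 to 11600000, with 13 probes, the values were 0.77 and 0.96 in Bmal1-/-, against 0.44, 0.29, 0.44, 0.43 and 0.76 in line 1 and -0.005 and 0.03 in line 2. This was the only one of the 4 in which both Bmal1-/- values lay above every line 1 value, and it adjoins the contact block that starts at 11600001.

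**Figure D5:**
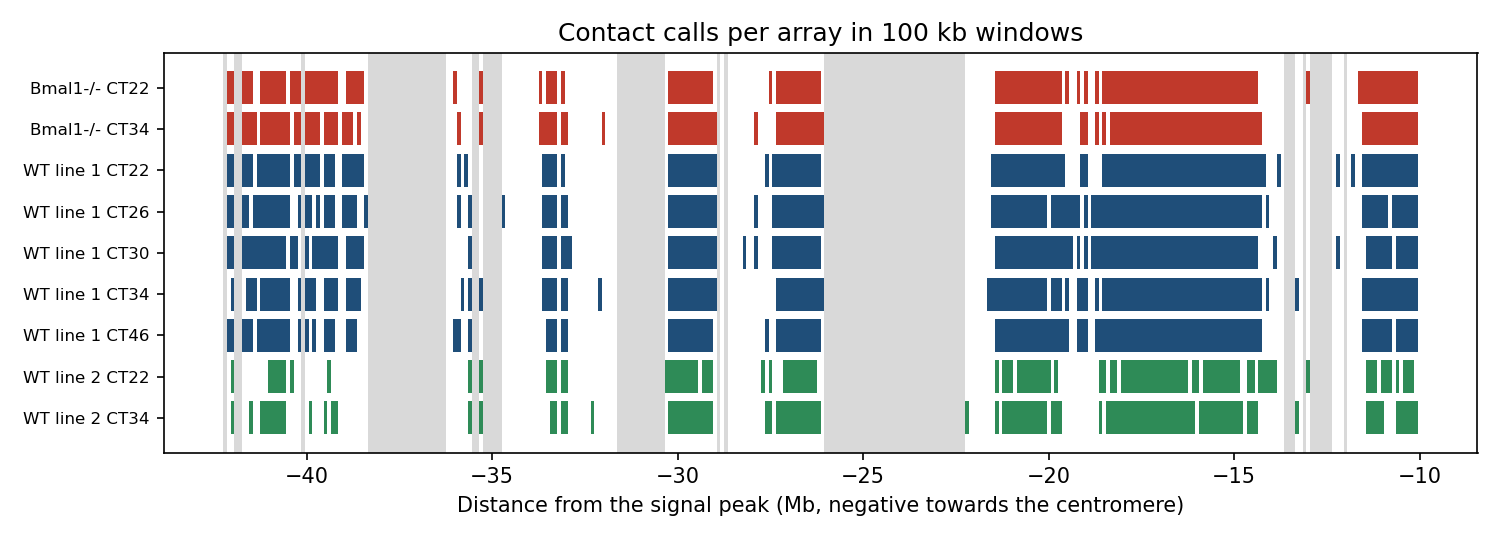
Contact calls (coloured bars) of 100 kb windows in each array (rows) against the distance from the signal peak in Mb (x axis), with Bmal1-/- above WT line 1 and WT line 2. Grey bars are stretches with under 5 probes per window; calls of the 6 longest contact blocks appear in all 9 rows, and line 2 lacks calls in windows inside several of them and over most of the far left.

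Bmal1-/- was compared with WT to ask whether contacts of Dbp depend on the clock activator. The share of high probes in the segment was 41.1% ± 0.460 in Bmal1-/- (n = 2) and 37.2% in the 4 WT arrays at CT22 and CT34, a difference of 3.94 percentage points (exact two-sided permutation test over 6 arrays, p = 0.733, smallest possible 0.0667). Within line 1 the direction turned. Set against the line 1 arrays at CT22 and CT34 alone, Bmal1-/- differed by -4.83 points (exact permutation p = 0.333, the smallest this design can give). Against all 5 line 1 arrays, a comparison chosen after seeing the data, the difference was -5.46 points (exact permutation p = 0.0476, the smallest of 21 rearrangements). The share depends on the threshold of each array, which was highest in Bmal1-/-. The mean log2 ratio of the segment was 1.90 ± 0.18 in Bmal1-/- (SD, n = 2), 1.81 ± 0.09 in line 1 (n = 5) and 0.48 ± 0.06 in line 2 (n = 2), so it was not lower in Bmal1-/- than in line 1.

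Within contact blocks 55.2% ± 0.863 of the probes were high in Bmal1-/-, against 62.9% ± 1.06 in line 1 and 35.7% ± 3.87 in line 2. These blocks were chosen by line 1 calls, which raises the share of line 1 in them, so this is no comparison of genotypes. The mean log2 ratio of contact windows was 2.44 ± 0.17 in Bmal1-/- and 2.42 ± 0.12 in line 1. That of silent windows was 0.71 ± 0.20 in Bmal1-/- and 0.48 ± 0.06 in line 1, where the Bmal1-/- array at CT22, with 0.57, lay level with the highest of line 1.

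No window of the segment differed between Bmal1-/- and WT past the threshold (limma over 6 arrays with time as a term, 0 of 226, against 0.0% of 24953 windows, smallest adjusted p = 0.281). The value was higher in Bmal1-/- in 224 of 226 windows, against 78.4% of all windows. Without adjustment 33 windows (14.6%) had a p under 0.05, all higher in Bmal1-/-, where 14.5% of all windows had one and 14.3% were higher. In this fit the shares were thus alike. The share of the segment was above that of all windows in the alternatives that follow. It was also above with window medians (17.3% against 7.86%) and all 5 line 1 arrays as WT (21.7% against 13.1%). It was below with at least 10 probes per window (11.3% against 14.6%) and in windows of 1 Mb (6.9% against 24.7%). In windows called in at least 1 array it was 2.17% against 2.54%. In the first fit the median difference was 0.71 in the segment, on the log2 scale, and 0.14 over all windows. The WT mean here includes line 2, with its narrow ratios. With line 1 as the only WT line, which serves as the replicate block, the median difference was 0.07 in the segment and 0.08 over all windows, 49 windows (21.7%, against 6.54% of all) had an unadjusted p under 0.05, 36 higher and 13 lower, and 0 passed. With each array divided by its 95th percentile, 42 (18.6%, against 3.27% of all) had such a p, 4 higher and 38 lower. After quantile normalization 24 did (10.6%, against 3.76% of all), 12 in each direction.

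The 5 windows of smallest p were all silent windows and none passed (limma, adjusted p = 0.281 for each). The window from 17700001 to 17800000, which ends at a border, had 1.89 and 1.601 in Bmal1-/-, against 0.59 and 1.05 in line 1 and 0.58 and 0.72 in line 2 at CT22 and CT34. That from 11200001 to 11300000 had 1.11 and 1.04 in Bmal1-/-, a mean of 0.17 in those 4 WT arrays and 0.29 over all of line 1. The windows from 17000001 to 17100000 and from 12400001 to 12500000 had means of 0.74 and 0.87 in Bmal1-/-, against 0.09 and 0.19 in WT. That from 32200001 to 32300000 had 1.499 in Bmal1-/- and 0.81 in WT. The differences at 17700001 and 32200001 changed sign when arrays were rescaled, and the other 3 remained positive but became smaller. After division by the 95th percentile 0.90 at 11200001, 0.65 at 17000001 and 0.68 at 12400001 became 0.27, 0.18 and 0.23, and with window medians they were 0.78, 0.16 and 0.13.

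CT34 was compared with CT22 in WT to ask whether contacts differ between opposite phases of the clock. The share of high probes in the segment averaged 38.0% at CT34 and 36.4% at CT22, a difference of 1.63 points (n = 2 arrays at each time, exact two-sided permutation p = 1, smallest possible 0.333). By line, CT34 minus CT22 was -0.647 points in Bmal1-/-, -0.180 in line 1 and 3.45 in line 2. No window of the segment passed the test (limma over 4 arrays, 0 of 226, against 0.0% of 24953 windows, smallest adjusted p = 1). Neither test paired the arrays of a line, so the difference between line 1 and line 2 counted as spread. Both could therefore miss a change shared by the lines. In this limma fit an unadjusted p under 0.05 was found in 4 of 226 windows (1.77%), 2 in each direction, where 0.293% of all windows had one. With line as a replicate block the number was 52 of 226 (23.0%), 41 higher and 11 lower, against 2.34% of all windows, and 0 passed.

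The 5 windows of smallest p in the comparison of times (limma, adjusted p = 1 for each) differed by small amounts. The window from 23300001 to 23400000 had 0.44 and 0.31 at CT34 in line 1 and line 2, a mean of 0.38, against -0.09 at CT22. The Bmal1-/- arrays, outside this test, had -0.08 at CT34 and 0.18 at CT22 there. The window from 10900001 to 11000000 had 0.33 at CT34 and 0.79 at CT22, and that from 23500001 to 23600000 had 0.18 at CT34 and 0.46 at CT22. Those from 17000001 to 17100000 and from 12200001 to 12300000 had 0.29 and 1.18 at CT34, against -0.11 and 0.57 at CT22. Line 1 and line 2 shared the direction in each of the 5 windows, which their choice by p favours.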

How the data were processed

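Per the file headers and the labels' protocols, each of 9 two-colour arrays gave 1 deposited log2 ratio per 59 nt probe, Cy5 4C DNA over Cy3 genomic DNA, which NimbleScan wrote after a Tukey biweight shift. The log base is NimbleScan's convention. Neither build nor filters were stated in the sources used. The chromosome 1 probes end at 197063459, past the last gene end of GRCm38.p6 at 195291439, so no gene or sequence was assigned by position. Ratios were centred on each array's median and averaged in 100 kb windows of at least 5 probes. Window means were tested with limma 3.58.1 in R 4.3.3 (lmFit, eBayes, two-sided, adjusted over 24953 windows, 0.05), and single shares with exact permutation tests in Python 3.11.15 with scipy 1.17.1. Replicate numbers stand for lines 1 and 2 and so pair WT CT22 with WT CT34: line 1 minus line 2 differences at the 2 times correlated at r = 0.858 over 226 windows. The text names, per comparison, the 5 windows of smallest p. Members and rules were chosen with earlier results of these data known. The scripts were tested on simulated data. Alternatives varied scaling, percentile, probe minimum, window length, replicates and block. No depth is defined for arrays, and their number limits the precision.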

Additional observations from a re-analysis of the deposited data

Results flagged for a closer look

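The change of the share of high probes in the segment from CT22 to CT34 had opposite signs in the WT lines. CT34 minus CT22 was -0.180 percentage points in line 1 (45.9% at CT34, 46.0% at CT22) and 3.45 points in line 2 (30.1% at CT34, 26.7% at CT22), with 1 array at each time. The difference between the lines was not tested. Line 2 also differed from line 1 in cross, range of ratios and, by the growth protocol, serum, and the part of these in the difference was not tested.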

How the results depend on the processing

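The excess of the segment over the middle and the distal part kept its sign and an exact p at the smallest possible value under the 90th and 99th percentiles, when any array was left out and without line 2. Leaving out 1 array gave 12.9 to 13.6 points over the middle and 12.1 to 12.6 over the distal part, and the 99th percentile gave 10.1 and 8.98. The genotype difference in share was -0.638 points at the 99th percentile, -4.83 with line 1 alone (the replicate block) and -5.46 with all 5 line 1 arrays, and ran from 0.443 to 6.90 when 1 array was left out. CT34 minus CT22 was -1.35 points at the 99th percentile, ran from -8.05 to 11.3 when 1 array was left out, and stayed at 1.63 with the block within lines. Block numbers depended on the window: 50 kb windows gave 44 contact and 65 silent blocks and 200 kb windows 8 and 11. Against the share of chromosome 7 itself there were 23 contact blocks, with 54 windows, and 36 silent blocks. Leaving out 1 line 1 array gave 18 to 19 contact and 23 to 25 silent blocks. With 500 kb to each side, the line 1 median split moved to 6340958 for the border at 6000000, to 6305924 for that at 6300000 and to 23964193 for that at 23700000, and stayed for the other 4. The borders at 6000000 and 6300000 bound the same silent block of 300 kb. The wider search around each of them therefore took in the other, and 6340958 lies beside the border at 6300000. In every fit with at least 2 arrays in each group, 0 windows of the segment passed in either comparison. For genotype, 16 of all 24953 windows passed with window medians, where the smallest adjusted p in the segment was 0.0585 (limma). With all 5 line 1 arrays as WT and no time term, 1 of all windows passed. For the window at 17700001, Bmal1-/- minus WT was -0.0804 after quantile normalization and -0.11 after division by the 95th percentile, and for 32200001 -0.40 and -0.31. The window median gave 0.0725 for CT34 minus CT22 at 10900001. The causes were not tested. Windows of 1 Mb gave 2 of 29 (6.9%) at an unadjusted p under 0.05 for genotype, against 24.7% of all such windows. When 1 WT array was left out, 17 to 67 windows (7.52% to 29.6%) had such a p for genotype, against 7.68% to 19.6% of all windows. Without 1 Bmal1-/- array, the median genotype difference in the segment was 0.81 or 0.66. For time it ran from -0.50 to 0.76 when 1 array was left out.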
